A study of Mus musculus with 12 samples.

Results

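The motile cilia and ependymal genes described here are 55 genes counted in the dorsal hippocampus of 12 mice. They were taken by symbol, as every gene in the count table named as a dynein axonemal heavy chain (Dnah), dynein axonemal intermediate chain (Dnai), dynein axonemal assembly factor (Dnaaf), cilia and flagella associated protein (Cfap), radial spoke head component (Rsph), dynein regulatory complex subunit (Drc) or as Spag6, Spag16 or Spag17, together with Foxj1, Pifo, Mcidas, Ccdc153, Tmem212 and Dynlrb2. Of 24985 genes in the table, 66 had such a symbol, and 55 of these had a mean raw count of at least 10 over the 12 mice. All 55 also passed edgeR's filter on low counts and are among the 14742 genes tested. The 11 left out were Cfap221, Cfap53, Cfap61, Cfap73, Cfap77, Cfap97d1, Dnaaf1, Dnah17, Mcidas, Rsph14 and Rsph6a, with mean counts from 0 for Cfap97d1 to 8.42 for Cfap53. The members just inside the limit were Dnah7a at a mean count of 10.2, Pifo at 10.8 and Cfap299 at 11.2. Pifo and Cfap299 passed it through the groups where their counts were high, so their calls below are not independent of the limit.

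Motile cilia are beating extensions of the cell surface built around an axoneme, a cylinder of microtubule doublets with a central pair of microtubules. Outer and inner dynein arms slide the doublets against each other, while radial spokes, the central pair apparatus and the nexin-dynein regulatory complex set the rhythm of the beat. In the brain, ependymal cells line the ventricles, carry tufts of motile cilia and move cerebrospinal fluid. The choroid plexus, which secretes that fluid, lies in the same ventricles, and the lateral ventricle borders the dorsal hippocampus. Foxj1 is the transcription factor that drives the genes of the motile axoneme, Mcidas acts before it in cells with many cilia, and RFX factors bind the promoters of many ciliary genes.

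The 4 groups, of 3 mice each, joined an injection to a diet, and the study's stated question was how raised acetate acts together with pathological tau. All mice were wild-type C57Bl6/J. At 6 months of age they received, in the right dorsal hippocampus, PBS as a sham or 1 µg of AD tau, an insoluble tau preparation from the cortex of patients with Alzheimer's disease, so the model carries no transgene. For the following 6 months their chow was either LabDiet 5001 that contained 5% Na-acetate, the acetate diet, or a control diet matched in calories. Poly(A) RNA was then sequenced from a slice of the injected side that held CA1, CA2, CA3 and dentate gyrus. The labels call the replicates biological, and the tissue of all mice was taken on 1 day and handled as 1 set, so no batch is known.

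Between 12983233 and 20218340 reads were counted on genes per mouse, and scaling factors by TMM (trimmed mean of M values, which equalizes library composition) lay between 0.99 and 1.01. Levels are given as CPM, a gene's counts scaled to a common library total after TMM. Marker genes of CA1 (5 of 5), CA3 (6 of 6) and dentate granule cells (6 of 6) were all expressed above the filter. The mice are labelled male, whereas every library held 13583 to 25991 counts of Xist, and no count fell on any of 8 Y-linked genes. The marker Foxj1 had a mean raw count of 186 and Pifo one of 10.8, so both were detected, but the members together made up only 411 to 545 CPM in any mouse. Bulk RNA does not show which cells a member's RNA came from. Nor does it tell fewer ciliated cells in the slice apart from less RNA per ciliated cell. Both limits hold for every difference that follows.

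The sequence that RFX factors bind stood in a larger share of the members' promoters than of all promoters, and it is shown here as a feature that the choice of members did not use. RefSeq windows on GRCm38.p6, from 250 bases before to 50 bases after a start site, were given for 47 of the 55 members (51 windows) and for 32851 start sites in all. On either strand, the RFX core GTTGCC stood in 49% of the member windows and in 12.5% of all windows. The longer X-box, made of GTNNCC and GNAAC with NNN between them, where N is any base, can include that core and stood in 17.6% of member windows and 2.17% of all windows. The forkhead sequences TGTTTAC and TGTTTGT each stood in 3.92% of member windows, against 3.65% and 6.61% of all windows. The stretches of 8 members with an X-box ahead of the start site follow, read 5′ to 3′ along the gene's strand on GRCm38.p6 with the X-box in capitals, whichever strand it matches. In Cfap206, chr4:34730207-34730244 on the minus strand, and in Pifo, chr3:106001498-106001532 on the minus strand, the gene itself fell with acetate in PBS-injected mice, as described further on.
Cfap206: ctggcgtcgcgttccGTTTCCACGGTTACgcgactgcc
Pifo: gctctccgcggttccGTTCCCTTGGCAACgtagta
Cfap44 (chr16:44394757-44394798, plus strand): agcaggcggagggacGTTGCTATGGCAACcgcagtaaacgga
Cfap45 (chr1:172521096-172521129, plus strand): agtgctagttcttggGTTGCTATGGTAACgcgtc
Cfap298 (chr16:90935009-90935052, minus strand): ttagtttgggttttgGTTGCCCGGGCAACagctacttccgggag
Dnaaf2 (chr12:69198430-69198461, minus strand): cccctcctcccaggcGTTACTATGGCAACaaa
Dnaaf5 (chr5:139150202-139150234, plus strand): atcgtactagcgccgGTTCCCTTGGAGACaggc
Spag16 (chr1:69826852-69826895, plus strand): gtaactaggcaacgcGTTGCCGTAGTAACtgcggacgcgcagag

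Of other members that fell with acetate in PBS-injected mice, Dynlrb2 and Ccdc153 had the RFX core but no match to the X-box as spelled above. That spelling fixes the spacing, and in Dynlrb2 GCAAC follows the core at a shorter spacing that was not searched. Cfap43 and Cfap126 each had a forkhead sequence, that of Cfap43 on the opposite strand. These matches, in capitals below, are descriptions of the letters in the window and not sites of binding. Among the members called lower with acetate in PBS-injected mice, 3 of 14 windows (21.4%) held GTTGCC, whereas 22 of 37 windows (59.5%) of the other members did. Some genes had several windows. Counted by gene, GTTGCC stood in 3 of 11 (27.3%) and 21 of 36 (58.3%), against 14.1% of all genes. The X-box, at the spacing searched, stood in 2 of 14 windows (14.3%) and 7 of 37 windows (18.9%). Either forkhead sequence stood in 2 of 14 windows (14.3%) and 2 of 37 windows (5.41%), against 9.95% of all windows. By gene, a forkhead sequence stood in 2 of 11 (18.2%) and 2 of 36 (5.56%), against 11.2% of all genes. No window was given for Foxj1, Rsph1, Rsph4a, Cfap54, Cfap65, Cfap97, Cfap157 and Cfap299.
Dynlrb2 (chr8:116504949-116504984, plus strand): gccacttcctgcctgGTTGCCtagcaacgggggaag
Ccdc153 (chr9:44240510-44240545, plus strand): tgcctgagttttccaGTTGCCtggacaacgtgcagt
Cfap43 (chr19:47837395-47837431, minus strand): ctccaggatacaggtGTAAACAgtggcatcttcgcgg
Cfap126 (chr1:171122981-171123017, plus strand): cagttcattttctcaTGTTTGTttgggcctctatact

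In PBS-injected mice, acetate feeding was accompanied by lower levels of 13 of the 55 members, Foxj1 among them, and 0 were called higher (3.99% of all genes were). The 13 are 23.6% of the members, against 4.85% of all 14742 genes called lower and 8.84% called in either direction. A gene was called when its adjusted p (edgeR's quasi-likelihood F test with Benjamini-Hochberg adjustment across the 14742 genes) was below 0.1. The 13 members lay at 0.209 to 0.501 of their control-diet level. Over the 55 members the median log2 fold change was -0.47 (range -2.26 to 0.91), against 0.00 for all genes, and 36 members were below 0 (49.1% of all genes). DESeq2, a second count model, called 14 members lower (5.44% of all genes). All 3 acetate-fed mice lay below all 3 control-fed mice for 23 members (13.2% of all genes did so) and above them for 2 members, Cfap58 and Dnah8 (13.1% of all genes). The count rested on few mice. Leaving out acetate-fed mouse 2 of the PBS-injected mice gave 0 calls, when only 15 genes of the whole table were called in place of 1303, and leaving out acetate-fed mouse 1 gave 4 (315 genes in all). Leaving out control-fed mouse 3 gave 2 calls (248 genes in all) and control-fed mouse 1 gave 7 (727 genes in all), and the other 8 fits with 1 mouse fewer gave 9 to 18.

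**Figure D1:**
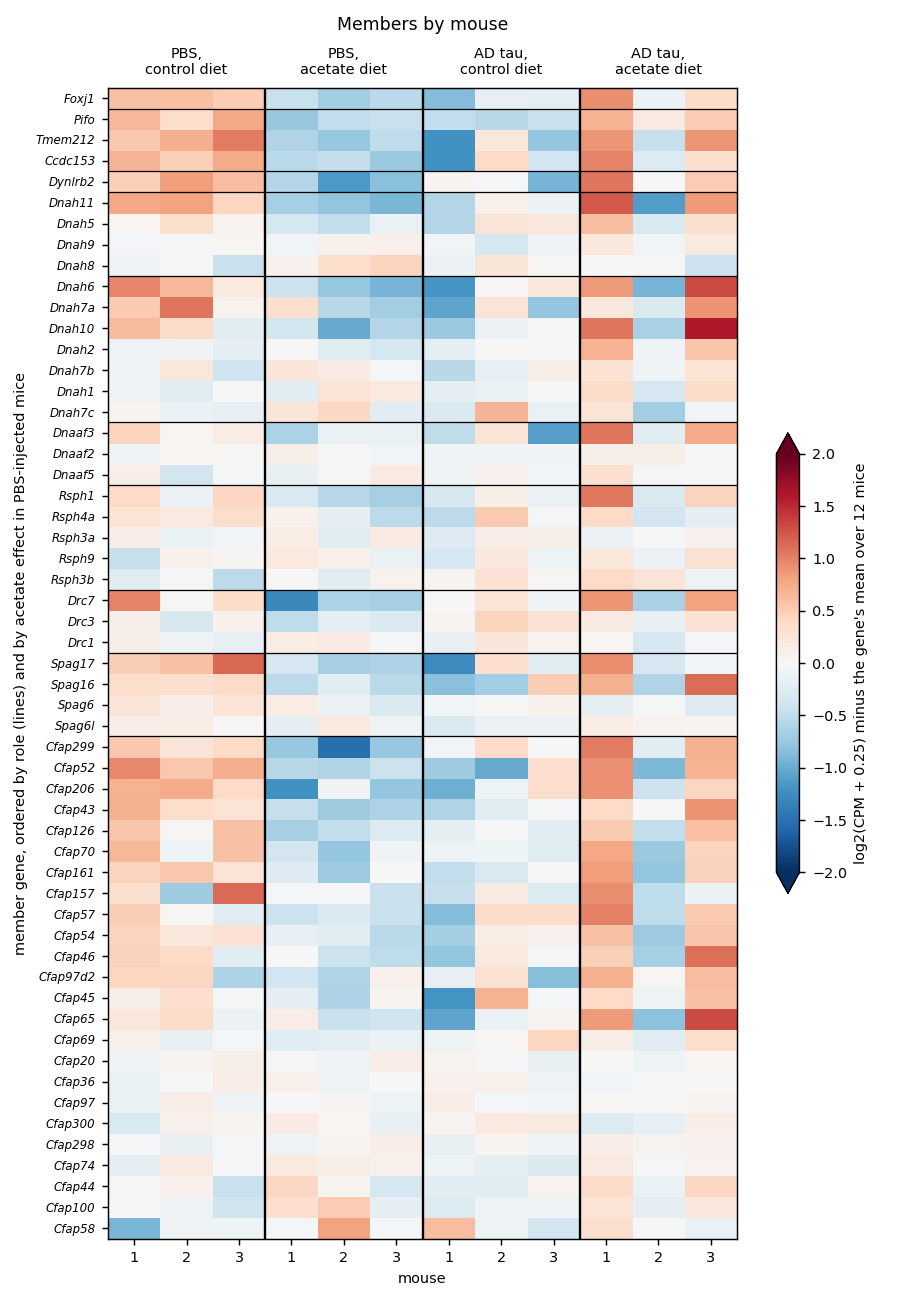
Each row is a member and each column a mouse, with colour giving log2(CPM + 0.25) minus the gene's mean over the 12 mice and members ordered by role (horizontal lines) and by the effect of acetate in PBS-injected mice. Most members are above their mean in the 3 PBS-injected control-diet mice and below it in the 3 PBS-injected acetate-diet mice, while tau-injected acetate mouse 2 differs from mice 1 and 3 of its group.

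Foxj1 lies on chromosome 11 from 116330704 to 116335399 on the minus strand. In the PBS-injected mice its level was 16.3, 16.5 and 15.3 CPM under the control diet and 7.88, 6.55 and 7.35 CPM under the acetate diet. Each acetate-fed mouse was below each control-fed mouse by a gap far wider than either group's own range. The acetate-fed mean was 7.26 ± 0.669 CPM (SD, n = 3). By the fit, the acetate-fed level was 0.451 of the control-fed level, or -1.15 as a log2 fold change (SE 0.25, edgeR adjusted p = 0.0355). The SE was derived from the F statistic, and the call held in 10 of 12 fits with 1 mouse left out.

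Pifo, whose protein sits at the base of cilia and acts in their disassembly, was counted rarely. On the control diet it had 1.11, 0.849 and 1.22 CPM in PBS-injected mice, and on the acetate diet 0.258, 0.361 and 0.383 CPM, from raw counts of 4 to 19. No acetate-fed mouse reached the lowest control-fed mouse, and the log2 fold change was -1.64 (SE 0.40, edgeR adjusted p = 0.0346). Dynlrb2, a dynein light chain of the roadblock family, had 1.63, 2.16 and 1.83 CPM on the control diet and 0.646, 0.361 and 0.511 CPM on the acetate diet. It fell to 0.270 of its control level (log2 fold change -1.89, SE 0.41, edgeR adjusted p = 0.0236). Its close relative Dynlrb1, a subunit of the dynein of all cells, was at 96.0 to 116 CPM in the same 6 mice, with a log2 fold change of -0.11 (edgeR adjusted p = 0.403).

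Ccdc153 and Tmem212 are genes of ciliated cells that are often used to mark ependyma. Ccdc153 had 7.16, 6.18 and 7.45 CPM in control-fed and 2.91, 3.04 and 2.49 CPM in acetate-fed PBS-injected mice (log2 fold change -1.30, SE 0.38, edgeR adjusted p = 0.0788). Tmem212 had 3.03, 3.48 and 4.40 CPM in control-fed and 1.23, 1.08 and 1.34 CPM in acetate-fed mice. Neither gene's groups overlapped, and Tmem212 fell by 1.58 on the log2 scale (SE 0.41, edgeR adjusted p = 0.0457). The call for Ccdc153 held in only 4 of the 12 fits with 1 mouse left out, and that for Tmem212 in 9.

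Of the dynein heavy chains, the motors of the arms, 1 of 4 outer arm members and 0 of 7 inner arm members were called in this comparison. Dnah11, the outer arm chain, was the member with the largest adjusted p among those called and is named after its values were seen. It had 4.48, 4.56 and 3.45 CPM in control-fed and 1.49, 1.34 and 1.21 CPM in acetate-fed PBS-injected mice, a fall of 1.62 on the log2 scale (SE 0.50, edgeR adjusted p = 0.0899). Dnah5 was also lower in each acetate-fed mouse without being called (-0.49, edgeR adjusted p = 0.294), while Dnah9, by far the most abundant heavy chain, had 37.6 to 41.9 CPM in all 6 mice (0.05, edgeR adjusted p = 0.775). Inner arm chains ran from -1.42 for Dnah6 (edgeR adjusted p = 0.197) to 0.31 for Dnah7c, with 1 of 7 at an unadjusted p below 0.05 and 0 called by DESeq2, and Dnah1, the most abundant of them per kb, stood at 0.21 (edgeR adjusted p = 0.516). The 3 assembly factors, which fold and load the arms, were all uncalled (0 at an unadjusted p below 0.05 and 0 by DESeq2), with changes from -0.59 to 0.08 and the most abundant, Dnaaf5, at 0.08.

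The parts that regulate the beat gave a mixed record. Spag17, a protein of the central pair, had 1.80, 1.93 and 2.98 CPM in control-fed and 0.904, 0.670 and 0.703 CPM in acetate-fed PBS-injected mice (log2 fold change -1.56, SE 0.45, edgeR adjusted p = 0.0588). The other 3 central pair members were below 0 and not called. Drc7, of the nexin-dynein regulatory complex, had 6.58, 3.24 and 4.20 CPM against 1.16, 1.96 and 1.92 CPM (-1.48, SE 0.41, edgeR adjusted p = 0.0615), with no overlap. Drc1 and Drc3, of the same complex, stood at 0.13 and -0.30 (edgeR adjusted p = 0.643 and 0.305). None of the 5 radial spoke members was called by edgeR (0 of 5, with 1 at an unadjusted p below 0.05 and 1 called by DESeq2). That member was Rsph1, named after its values were seen, at -0.81 (SE 0.29, edgeR adjusted p = 0.130), while the more abundant Rsph9 stood at 0.16 (edgeR adjusted p = 0.642).

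Of the 24 cilia and flagella associated proteins, 5 were called lower. Cfap43, an axonemal protein needed for normal cilia and sperm tails, had 4.83, 3.71 and 3.52 CPM in control-fed and 2.00, 1.65 and 1.79 CPM in acetate-fed PBS-injected mice (-1.16, SE 0.26, edgeR adjusted p = 0.0253). Cfap299 had the widest change of any member, from 0.990, 0.772 and 0.880 CPM to 0.258, 0.0516 and 0.256 CPM, on raw counts of 1 to 17 (-2.26, SE 0.57, edgeR adjusted p = 0.0389). Exons of Cfap43 and Cfap299, like those of Dnaaf2 and Dnaaf3, overlap another gene on the same strand, where reads cannot be assigned with certainty. Cfap52, a protein inside the doublet microtubules, had 3.09, 2.24 and 2.57 CPM against 0.904, 0.877 and 1.02 CPM (-1.50, SE 0.46, edgeR adjusted p = 0.0756). Cfap206, whose promoter stretch is printed above, had 2.39, 2.47 and 1.90 CPM against 0.452, 1.29 and 0.703 CPM (-1.42, SE 0.44, edgeR adjusted p = 0.0738). Cfap126, which positions basal bodies, had 3.03, 2.01 and 3.11 CPM against 1.16, 1.34 and 1.60 CPM (0.501 of the control-fed level by the fit, edgeR adjusted p = 0.0725). The groups did not overlap for any of these 5.

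**Figure D2:**
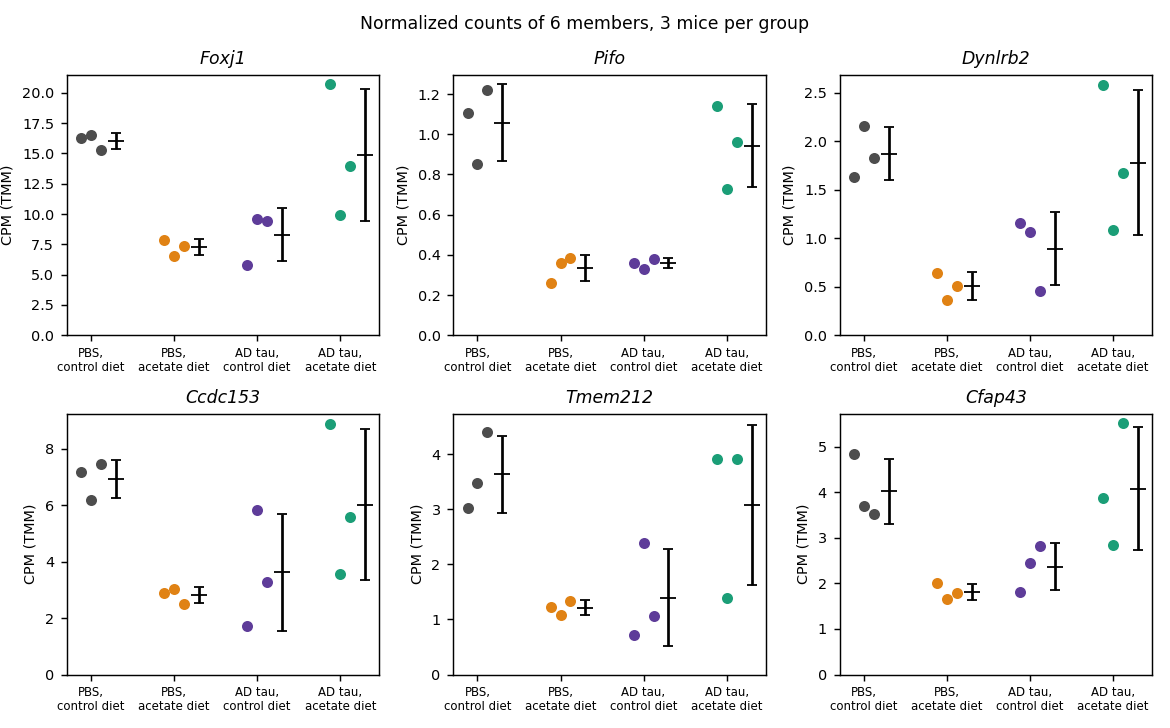
Points are CPM of single mice in the 4 groups and bars beside them the mean and SD (n = 3) for Foxj1, Pifo, Dynlrb2, Ccdc153, Tmem212 and Cfap43, with the axis from 0. In each panel the PBS-injected acetate-diet mice lie below the PBS-injected control-diet mice, and the tau-injected acetate-diet mice are spread widely.

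None of the 6 most abundant members per length was called with acetate in PBS-injected mice. Compared per length, as CPM per kb of exon, the highest levels were 34.2 for Cfap36, 16.3 for Cfap298, 8.05 for Cfap97, 6.44 for Cfap20, 6.29 for Rsph9 and 6.09 for Cfap300, against 4.43 for Foxj1. Their log2 fold changes were 0.01, 0.09, 0.02, -0.00, 0.16 and 0.08. Cfap36 stood at 85.3, 93.1 and 103 CPM in control-fed and 101, 87.2 and 94.4 CPM in acetate-fed mice, with groups that overlapped fully. The median change was 0.02 over the 18 most abundant members per kb (4 called), -0.49 over the middle 19 (6 called) and -0.65 over the 18 least abundant (3 called). The 3 called members with a mean raw count of at least 50 were Foxj1, Ccdc153 and Drc7, and the median over the members past that limit was 0.00701. Cfap58 and Dnah8, named after their values were seen, were higher in every acetate-fed mouse without being called (0.91 and 0.58, edgeR adjusted p = 0.298 and 0.285).

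**Figure D3:**
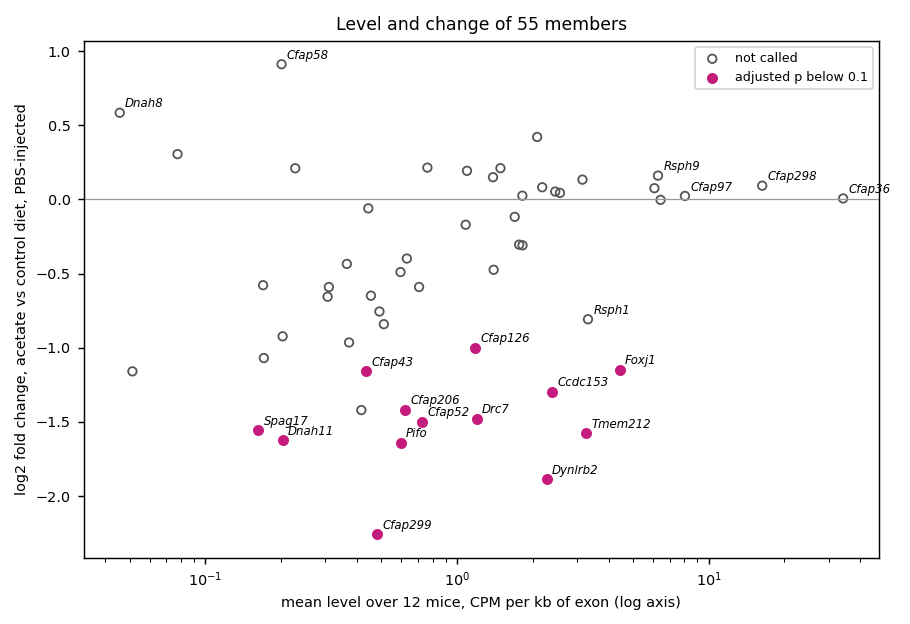
Each point is a member, with its mean level in CPM per kb of exon on a log axis and its log2 fold change with acetate in PBS-injected mice, filled where the adjusted p was below 0.1. Members above 5 CPM per kb lie close to 0, and all filled points lie below 0.

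Near-identical copies among the members were counted separately, and reads they share can be split or lost in counting. Dnah7a, Dnah7b and Dnah7c had log2 fold changes of -1.16, 0.21 and 0.31 with acetate in PBS-injected mice, and 0.08 once summed. For Spag6 and Spag6l the values were -0.31 and -0.12, and -0.20 summed. For Rsph3a and Rsph3b they were 0.04 and 0.21, and 0.10 summed. None was called alone or summed in any comparison (edgeR adjusted p from 0.240 to 0.970 for the sums), and these directions are therefore uncertain.

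On the control diet, AD tau injection gave no member past the threshold. By edgeR 0 of 55 members were called (0.0136% of all genes were), with 9 lower and 0 higher at an unadjusted p below 0.05 (4.84% of all genes were lower at that level). DESeq2 called 1 member lower with all 12 mice (0.461% of all genes) and 2 with only the 6 mice compared (180 genes in all). With all 12 mice it gave no adjusted p for many members, Pifo and Dynlrb2 among them, and these count as not called. EdgeR called 1 with those 6 (35 genes in all), and also 1, Foxj1, when acetate-fed mouse 1 of the tau-injected mice was left out (9 genes in all, in place of 2). The median log2 fold change was -0.22, with 38 members below 0 (50.3% of all genes), and the tau-injected mice lay wholly below the PBS-injected mice for 16 members (6.84% of all genes) and above for 1, Rsph3b (6.61%). Foxj1 had 5.77, 9.62 and 9.46 CPM in tau-injected mice, below the PBS-injected mice's 15.3 to 16.5 CPM (-0.95, SE 0.25, edgeR adjusted p = 0.303). It was the member that DESeq2 called on all 12 mice (adjusted p = 0.0161). Pifo had 0.361, 0.332 and 0.381 CPM in tau-injected mice, also with no overlap (-1.56, SE 0.41, edgeR adjusted p = 0.284). Dynlrb2 had 1.15, 1.06 and 0.458 CPM (-1.04, edgeR adjusted p = 0.393), Tmem212 0.721, 2.39 and 1.07 CPM (-1.35, edgeR adjusted p = 0.350) and Ccdc153 1.73, 5.84 and 3.28 CPM (-0.93, edgeR adjusted p = 0.467). Tau-injected control mouse 1 had the lowest Ccdc153 and Tmem212 of its group.

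In tau-injected mice, the acetate diet went with higher values of most members, again without a call. By edgeR 0 of 55 were called (0.0611% of all genes were), with 11 higher and 0 lower at an unadjusted p below 0.05 (5.47% of all genes were higher). DESeq2 called 1 higher with all 12 mice (0.536% of all genes), Foxj1, and 1 with only the 6 mice compared (130 genes in all). With all 12 mice it gave no adjusted p for many members, which count as not called. Pifo, Dynlrb2, Tmem212 and Ccdc153 were among these. The median log2 fold change was 0.38, and 44 members were above 0 (50.3% of all genes). Acetate-fed mice lay above control-fed mice for 8 members (6.66% of all genes), namely Foxj1, Pifo, Cfap43, Cfap74, Cfap298, Dnaaf2, Dnah9 and Spag6l. Foxj1 had 20.8, 9.92 and 13.9 CPM on the acetate diet (0.85, SE 0.25, edgeR adjusted p = 0.275, and DESeq2 adjusted p = 0.0295), and the tau-injected acetate group varied more among its mice (14.9 ± 5.48 CPM, SD, n = 3) than any other. Pifo had 1.14, 0.726 and 0.963 CPM (1.39, SE 0.41, edgeR adjusted p = 0.246). Dnah9, next by p, had 45.3, 37.6 and 44.1 CPM against 37.6, 30.7 and 37.2 CPM on the control diet (0.27, SE 0.09, edgeR adjusted p = 0.276). Leaving out acetate-fed mouse 2 of the tau-injected mice gave 5 calls (27 genes in all, in place of 9) and a median of 0.70, and leaving out any other single mouse gave 0 calls.

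Comparing the injections on the acetate diet, 0 of 55 members were called by edgeR (0.136% of all genes were), but 24 were higher and 0 lower at an unadjusted p below 0.05 (5.50% of all genes were higher). DESeq2 called 8 higher with all 12 mice (0.556% of all genes) and 7 with only the 6 mice compared (138 genes in all). EdgeR called 3 with no filter on low counts, when 37 genes in all were called in place of 20. It called 15 when acetate-fed mouse 2 of the tau-injected mice was left out, when 93 genes in all were called. The median log2 fold change was 0.60, with 44 members above 0 (48.8% of all genes), and tau-injected mice lay above PBS-injected mice for 10 members (7.51% of all genes) and below for 1, Dnah8 (8.71%). The smallest p values belonged to Cfap299 (2.51, SE 0.54, edgeR adjusted p = 0.115), Cfap43 (1.17, SE 0.26, edgeR adjusted p = 0.120) and Dynlrb2 (1.84, SE 0.41, edgeR adjusted p = 0.120). Dynlrb2 had 2.58, 1.09 and 1.67 CPM in tau-injected mice against 0.361 to 0.646 CPM in PBS-injected mice. Cfap43 had 3.87, 2.84 and 5.52 CPM against 1.65 to 2.00 CPM, and Cfap299 had 1.49, 0.484 and 1.16 CPM against 0.0516 to 0.258 CPM. For these 3 genes no mouse of one group fell in the range of the other. Foxj1 (1.05, edgeR adjusted p = 0.177), Pifo (1.48, edgeR adjusted p = 0.179), Tmem212 (1.35, edgeR adjusted p = 0.260) and Ccdc153 (a 2.15-fold level, edgeR adjusted p = 0.347) were higher in each tau-injected mouse. Since this comparison and that of acetate in PBS-injected mice share the PBS-injected acetate-diet mice, their values are not independent. The same holds for tau on the control diet and acetate in PBS-injected mice, which share the PBS-injected control-diet mice. Acetate in tau-injected mice likewise shares a tau-injected group with each comparison of the injections.

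**Figure D4:**
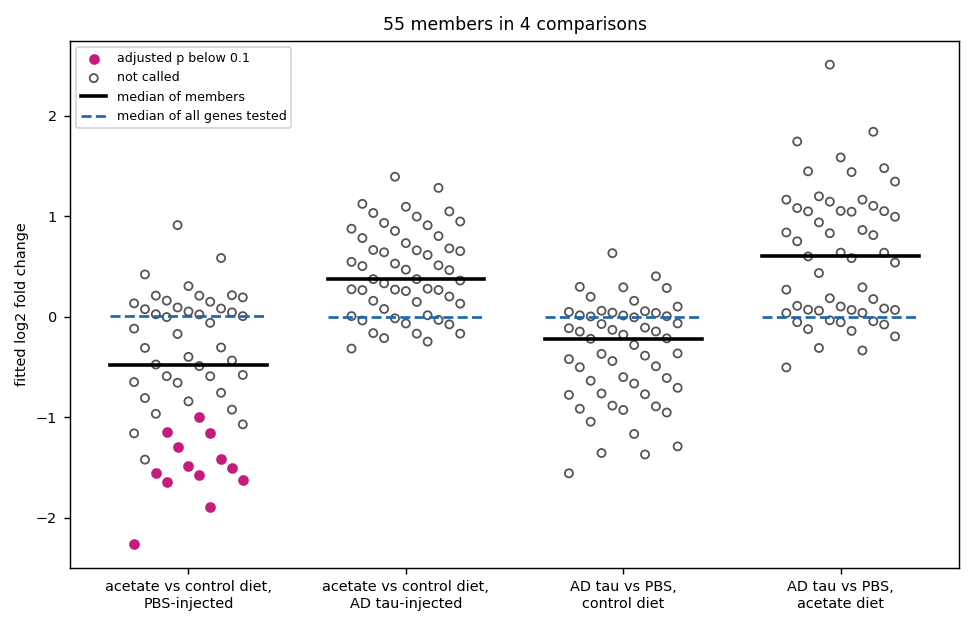
Each point is the fitted log2 fold change of 1 of the 55 members in 4 comparisons, filled where the adjusted p was below 0.1, with the members' median as a solid line and that of all genes as a dashed line. Filled points occur only for acetate in PBS-injected mice, and the members' medians, from left to right, are -0.47, 0.38, -0.22 and 0.60.

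The interaction term tests whether acetate acted differently after AD tau than after PBS, and it was called for 6 members, all in the positive direction. These are 10.9% of the 55, against 1.56% of all genes called in either direction and 1.11% called higher. After AD tau the effect of acetate was more positive than after PBS, by 3.03 for Pifo (SE 0.57, edgeR adjusted p = 0.0417), 2.88 for Dynlrb2 (SE 0.56, edgeR adjusted p = 0.0435) and 2.87 for Cfap299 (SE 0.72, edgeR adjusted p = 0.0797). For the other 3 the difference was 2.70 for Tmem212 (SE 0.58, edgeR adjusted p = 0.0567), 2.00 for Foxj1 (SE 0.35, edgeR adjusted p = 0.0466) and 1.94 for Cfap43 (SE 0.36, edgeR adjusted p = 0.0417), all on the log2 scale. Ccdc153 had 2.03 (SE 0.54, edgeR adjusted p = 0.126) and was not called. Pifo and Cfap299, with mean counts of 10.8 and 11.2, passed the member minimum of 10 through the groups where they were high. Pifo had raw counts of 11 to 23 in PBS-injected control-diet and tau-injected acetate-diet mice and 4 to 7 in the other groups. Their place among the 6 is therefore tied to the choice of members. In each of the 6 the control-diet level was higher after PBS and the acetate-diet level higher after AD tau, by the group means. At an unadjusted p below 0.05, 24 members were positive and 0 negative (6.76% of all genes were positive), and DESeq2 called 15 (2.27% of all genes were called higher). Leaving out acetate-fed mouse 2 of the PBS-injected mice gave 0 calls (8 genes in all, in place of 230). Among tau-injected acetate-fed mice, leaving out mouse 1 gave 2 (22 genes in all) and leaving out mouse 2 gave 23 (218 genes in all). Over the 12 fits with 1 mouse fewer, Foxj1 and Cfap43 were called in 11, Pifo and Dynlrb2 in 10, Tmem212 in 9 and Cfap299 in 3.

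Members also varied together from mouse to mouse, mostly inside the tau-injected groups. A score, the mean over members of log2 CPM with each gene's mean set to 0, was 0.27, 0.20 and 0.16 in PBS-injected control-diet mice and -0.23, -0.30 and -0.30 in PBS-injected acetate-diet mice. It was -0.43, 0.06 and -0.10 in tau-injected control-diet mice and 0.54, -0.30 and 0.42 in tau-injected acetate-diet mice. Mouse 2 of the last group therefore had a score like that of the PBS-injected acetate-diet mice. The SD of the score was 0.055 and 0.041 in PBS-injected control-diet and acetate-diet mice. After AD tau it was 0.25 on the control diet and 0.45 on the acetate diet, so the correlations that follow rest mostly on tau-injected mice. With group means removed, the correlation of a member with the mean of the others over 12 mice had a median of 0.66 (range -0.26 to 0.96), was above 0.5 for 36 members and below 0 for 6. Dnah11 (0.96) and Cfap54 (0.96, named after its value was seen) were highest, Foxj1 had 0.90, and Cfap36 (-0.06), Cfap97 (-0.21) and Cfap58 (-0.26) were among the lowest. These points share libraries and groups of 3, so they are a description only.

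Outside the members, the 10 genes whose within-group variation over the 12 mice was most like the members' mean were Syne4 (r = 0.97), Ccdc39 (0.95), Gon4l (0.95), Lrrc6 (0.95), Stmnd1 (0.94), Pin4 (0.93), Eps15l1 (0.93), Ttc21a (0.93), Hydin (0.93) and Hdac6 (0.93). Ccdc39, Lrrc6 and Hydin belong to motile cilia, Ccdc39 as part of the ruler that spaces the arms, Lrrc6 as an assembly factor and Hydin in the central pair. Across the 12 mice without removal of group means, r stayed high for Stmnd1 (0.95), Ttc21a (0.92) and Hydin (0.91) and was 0.12 to 0.65 for the others. The within-group ranking again rests mostly on the tau-injected mice, whose member scores varied most.

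The rest of the motile cilia pathway, a list of 67 tested genes that are not members, also held lower genes. With acetate in PBS-injected mice 10 of the 67 were called lower (4.85% of all genes were) and 0 higher (3.99%). The list's median was -0.29 on the log2 scale. The leading genes were Enkur (-1.13, SE 0.23, edgeR adjusted p = 0.0185), Tekt4 (-2.56, SE 0.54, edgeR adjusted p = 0.0203), Tekt1 (-1.29, SE 0.32, edgeR adjusted p = 0.0355) and Ak7 (-1.45, SE 0.36, edgeR adjusted p = 0.0487). Enkur and the tektins lie inside the doublet microtubules, and Ak7 is an adenylate kinase of the axoneme. The interaction was called positive for 6 of the 67 (1.11% of all genes were). Among them were Enkur at 1.66 (edgeR adjusted p = 0.0417), Tekt4 at 3.21 (edgeR adjusted p = 0.0511), Tekt1 at 2.04 (edgeR adjusted p = 0.0547) and Ccdc40, the partner of Ccdc39, at 1.79 (edgeR adjusted p = 0.0620). On the acetate diet, tau-injected mice had more Enkur (1.20, edgeR adjusted p = 0.0593) and Tekt4 (2.67, edgeR adjusted p = 0.0856) than PBS-injected mice.

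Intraflagellar transport, the traffic that builds motile and primary cilia alike, gave values near 0. Of 31 genes 1 was called lower with acetate in PBS-injected mice, Kif3b (-0.18, edgeR adjusted p = 0.0469), and 2 higher, Ift122 (0.28, edgeR adjusted p = 0.0382) and Wdr34 (0.31, edgeR adjusted p = 0.0887). Of all genes, 4.85% were called lower and 3.99% higher in that comparison. The list's median was 0.06. The factor genes Rfx2 and Rfx3, named for the promoter sequence above and outside the rule for naming, had 2.39 to 3.97 and 99.1 to 145 CPM in the PBS-injected mice, with log2 fold changes of -0.16 and 0.17 (edgeR adjusted p = 0.735 and 0.421). Mcidas had raw counts of 0 to 10 per mouse, too few for a test.

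A list of ependymal genes without a ciliary role was lower in the same comparison. Of 14 genes 9 were called lower with acetate in PBS-injected mice (4.85% of all genes were) and 0 higher (3.99%), with a median of -0.50. Tppp3, which encodes a microtubule-binding protein, had 39.1, 28.8 and 34.5 CPM in control-fed and 23.5, 19.2 and 19.3 CPM in acetate-fed mice (-0.73, SE 0.13, edgeR adjusted p = 0.0149). Rarres2, which encodes the secreted protein chemerin, had 9.20, 6.18 and 9.41 against 4.20, 4.33 and 4.66 CPM (-0.92, SE 0.19, edgeR adjusted p = 0.0195), followed by Calml4 (-1.76, edgeR adjusted p = 0.0268) and Tm4sf1 (-0.57, edgeR adjusted p = 0.0286). The interaction was called positive for 6 of the 14 (1.11% of all genes were). Tppp3 (1.28) and Rarres2 (1.70, each with edgeR adjusted p = 0.0206) led, with Vim next (0.93, edgeR adjusted p = 0.0357). Calml4 also stands in the choroid plexus list, and Aqp4, Gja1 and Sox9 in the astrocyte list.

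Markers of other cell types differed between the same groups, and their part in the members' differences was not tested. Of 17 choroid plexus genes 3 were called lower with acetate in PBS-injected mice (Calml4, Folr1 and Otx2, against 4.85% of all genes). None was called higher (3.99% of all genes were), and the choroid plexus genes had a median of -0.98. Their summed level was 404 to 463 CPM in control-fed and 305 to 325 CPM in acetate-fed PBS-injected mice, and 344 to 520 and 404 to 964 CPM in tau-injected mice, with no marker at 0. Ttr, the most typical choroid plexus transcript, stood at 50.8, 49.4 and 78.4 CPM and 22.2, 21.5 and 35.9 CPM in the PBS-injected groups and at 148, 53.7 and 91.2 CPM on the control diet after AD tau. In tau-injected acetate-diet mice Ttr had 40.0, 36.7 and 399 CPM, so mouse 3 stood apart. Ttr was not called with acetate in PBS-injected mice (-1.17, SE 0.99, edgeR adjusted p = 0.556) or for the interaction (edgeR adjusted p = 0.632). The interaction had a median of 1.12 over the 17 choroid plexus genes. At an unadjusted p below 0.05, 5 were positive (6.76% of all genes were) and 0 negative. EdgeR called 1 (Folr1, against 1.11% of all genes called higher) and DESeq2 called 4 (2.27%). The lowest member score of that group was in mouse 2. Leaving out mouse 3 gave 7 calls for the interaction and 11 for acetate in PBS-injected mice. Mouse 3 enters that last comparison only through the shared estimate of spread. These counts do not test the part of choroid plexus tissue in the members' differences.

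With acetate in PBS-injected mice, 4.85% of all genes were called lower and 3.99% higher. Oligodendrocyte markers, 12 in all, had 5 called lower in that comparison and 0 higher, with a median of -0.61. Among the 5 were Gjb1 (-0.72, edgeR adjusted p = 0.0408), Ugt8a (-0.84, edgeR adjusted p = 0.0895), Cldn11 (-0.65, edgeR adjusted p = 0.0934) and Mobp (-0.73, edgeR adjusted p = 0.0981). Summed, the 12 markers stood at 7508 to 9691 CPM and 4707 to 6484 CPM in PBS-injected mice, and at 4979 to 6053 and 5683 to 9125 CPM in tau-injected mice. For the interaction all 12 were positive at an unadjusted p below 0.05 (6.76% of all genes were), with a median of 1.11. EdgeR called 1 of them, Gjb1 (1.35, edgeR adjusted p = 0.0466, against 1.11% of all genes called higher), and DESeq2 called 11 (2.27%). Markers of the pyramidal fields moved in opposite directions with acetate in PBS-injected mice. The CA1 markers Pou3f1 (0.61, edgeR adjusted p = 0.0512) and Fibcd1 (0.68, edgeR adjusted p = 0.0596) were higher with acetate. CA3 markers had 3 of 6 called lower (Cpne4, Grik4 and Iyd) and a sum of 398 to 484 CPM in control-fed against 218 to 351 CPM in acetate-fed PBS-injected mice. The amount of tissue taken from each field and beside the ventricle was not measured. Of 9 astrocyte markers 1 was called lower, Aqp4 (-0.20, edgeR adjusted p = 0.0726), and 2 higher, Slc1a3 and Aldoc (0.23 and 0.20), with a median of 0.07. Meningeal markers had 0 of 14 called by edgeR (0 at an unadjusted p below 0.05 and 0 by DESeq2) and a median of 0.26, and dentate granule markers 0 of 6 (1 at an unadjusted p below 0.05 and 1 by DESeq2) and 0.16.

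**Figure D5:**
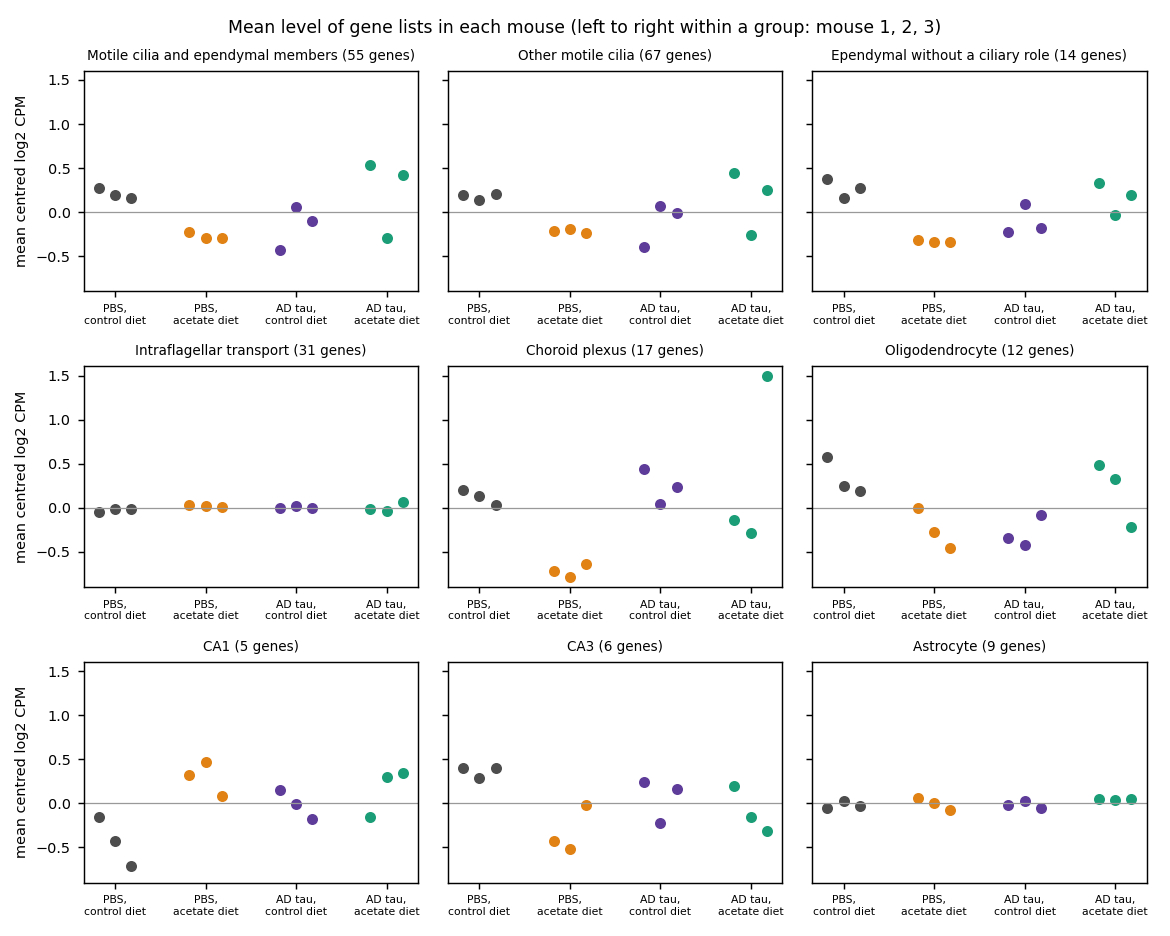
Each point is 1 mouse (left to right, mouse 1 to 3 within a group) and its mean centred log2 CPM over a gene list, for the members and 8 other lists. For the members, the other motile cilia genes and the ependymal genes the PBS-injected acetate-diet mice lie below 0 and tau-injected acetate mouse 2 below mice 1 and 3, the intraflagellar transport score stays near 0, and the choroid plexus score of tau-injected acetate mouse 3 is the highest at 1.49.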

How the data were processed

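Members and gene lists were chosen with earlier results of these data known. Poly(A) RNA was sequenced on a NextSeq. The authors aligned reads with STAR 2.5.2 to GRCm38 and counted them per gene on exons of the reverse strand with HTSeq 0.9.1, and raw counts of 12 mice were deposited by the authors without normalization; the submitters' processing notes also name SAMtools 1.1. The annotation release is not given in the sources used here. The labels name a directional library kit and the paper's methods another Ultra II kit. Totals of 12983233 to 20218340 counts limit scarce members most. Replicates differed by more than counting noise (chi-square per gene 3.45 to 7.53).

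Genes were kept by filterByExpr (minimum count 10, minimum total 15) and fitted with edgeR 4.0.16 in R 4.3.3, with TMM, 1 mean per group over all 12 mice, the robust quasi-likelihood F test and Benjamini-Hochberg adjustment. SEs came from the F statistic. The study's methods name DESeq2, so DESeq2 1.42.0 was an alternative. Genes without an adjusted p from DESeq2 were counted as not called. Scores used log2 CPM with a prior count of 2. The functions were tested on simulated data. As alternatives, the fit was repeated with size factors of DESeq2, without the filter, by DESeq2, on only the 6 mice compared, at a threshold of 0.05, with a replicate block, without each mouse in turn, with a member minimum of 50 and with copies summed. Lengths and gene coordinates came from GENCODE M21 (24534 of 24985 symbols), promoter windows from RefSeq (47 of 55 members). Outside stated exceptions, the genes named were Foxj1, Pifo, Mcidas, Ccdc153, Tmem212 and Dynlrb2, called members (at most 12 per comparison by p, or the 3 smallest p), the most abundant member per role, near-identical copies, up to 4 called genes per other list and comparison, Ttr and the 10 most correlated genes. The CA1 list is not reported here as a count or sum.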

Additional observations from a re-analysis of the deposited data

Results flagged for a closer look

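For 6 members the effect of acetate differed between PBS-injected and tau-injected mice by the interaction term (edgeR, adjusted p below 0.1). The difference is on the log2 scale and positive where the effect of acetate was more positive after AD tau than after PBS. The difference was 1.94 for Cfap43 (SE 0.36, edgeR adjusted p = 0.0417), 3.03 for Pifo (SE 0.57, edgeR adjusted p = 0.0417), 2.88 for Dynlrb2 (SE 0.56, edgeR adjusted p = 0.0435) and 2.00 for Foxj1 (SE 0.35, edgeR adjusted p = 0.0466). It was 2.70 for Tmem212 (SE 0.58, edgeR adjusted p = 0.0567) and 2.87 for Cfap299 (SE 0.72, edgeR adjusted p = 0.0797), which has at most 30 counts in any mouse. Pifo and Cfap299 were near the member minimum and passed it through the groups where they were high. Groups of 3 mice were too small to be searched for outlying mice.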

How the results depend on the processing

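Alternatives were run for the 5 counts of calls, the medians and 37 pairs of a gene and a comparison, and none of the 37 changed sign. Left out of these pairs were 12 values for which DESeq2 gave no adjusted p. Calls of members moved as follows. For acetate in PBS-injected mice (13 calls, 1303 genes in all) there were 20 by edgeR on the 6 compared mice (1537 genes in all). There were 6 at an adjusted p below 0.05 (541 genes in all). With a member minimum of 50 there were 3, and the median was 0.00701 in place of -0.47. For the interaction (6 calls, 230 genes in all) there were 15 by DESeq2 on 12 mice (472 genes in all) and 1 with a minimum of 50. For tau against PBS on the acetate diet (0 calls, 20 genes in all) there were 3 with no filter (37 genes in all). DESeq2 gave 8 on 12 mice (130 genes in all) and 7 on the 6 compared mice (138 genes in all). The median was 0.10 with a minimum of 50 in place of 0.60. On the control diet (0 calls, 2 genes in all) there was 1 by DESeq2 on 12 mice (100 genes in all). On the 6 compared mice there were 2 by DESeq2 (180 genes in all) and 1 by edgeR (35 genes in all). For acetate in tau-injected mice (0 calls, 9 genes in all) there was 1 by DESeq2 on 12 mice (167 genes in all) and 1 on the 6 compared mice (130 genes in all). A minimum of 50 tests fewer members by construction; the cause of the other shifts was not tested. With 1 mouse left out, the group that lost it leans more on the other groups for its spread. Calls then ranged from 0 to 18 for acetate in PBS-injected mice, 0 to 23 for the interaction, 0 to 15 and 0 to 1 for tau on the acetate and control diets, and 0 to 5 for acetate in tau-injected mice. The medians ranged from -0.53 to -0.37, 0.53 to 1.17, 0.37 to 0.84, -0.46 to -0.20 and 0.22 to 0.70 in the same order. Replicate numbers did not pair the mice (correlation of same-numbered deviations -0.10 to 0.14, with 2 of 18 above 0.1). With the replicate block there were 10 calls for acetate in PBS-injected mice, all among the 13, 8 for the interaction, including the 6, and 0 for the other 3 comparisons. For scarce members counting noise limits the precision.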
